A study of Sus scrofa with 20 samples.

Results

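Chaperone and endoplasmic reticulum (ER) stress genes were followed in ileum mucosa of pigs of low and high residual feed intake (RFI). RFI is the feed a pig eats beyond what its growth and body composition predict, so a pig of low RFI is feed efficient. The list held 52 genes, 22 for chaperones of the cytosol and mitochondria and 30 for proteins of the ER and its stress response. A gene was taken where the platform annotation gave its symbol to a row with values, with no filter on variance, and the probeset of the highest mean stood for the gene. This gave 29 of the 52 genes, 12 of the 22 and 17 of the 30, among 10567 named genes in all. Of the rest, 9 had no row of that symbol and 14 had empty rows only, and these are not analysed here. They include HSF1, HSPA1A, HSPA1B, HSPA8, DNAJB1, HSPA5, HSP90B1, XBP1, ATF4, DDIT3 and ERN2. Thus the inducible Hsp70 genes HSPA1A and HSPA1B, the main ER chaperone BiP and most transcription factors of the stress response are not covered.

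The 20 pigs were Large White x Landrace crosses fed ad libitum, 10 of low and 10 of high RFI, untreated otherwise, with 1 snowball array of ileum mucosa each. The 5 litters each supplied 4 of them, a female and a male from both RFI classes, so that the pigs form 10 pairs matched for sow and sex. Litter, sow and pen are 1 factor here. The labels give feed efficiency, and high efficiency was read as low RFI, by the definition in the paper. If the label instead named the RFI class, every RFI direction below would turn.

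Chaperones bind proteins that are not yet folded or have lost their fold. In the cytosol, heat shock factors switch on the genes of Hsp70, Hsp90 and the small heat shock proteins when unfolded proteins gather. In the ER, the sensors IRE1 (ERN1), PERK (EIF2AK3) and ATF6 respond to unfolded secretory proteins by raising chaperones, slowing translation and sending misfolded proteins to degradation. Secretory cells of the gut, among them goblet cells and plasma cells, carry a large load of such proteins.

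All values are log2 signals, so that a difference of 1 is a doubling, and the level of a probeset is not compared with that of another. Array medians lay between 4.98 and 5.07 and correlations between 2 arrays between 0.948 and 0.974. Markers of enterocytes (5 of 8 with values) had a mean between 9.79 and 11.0975 in every pig. Those of T cells (5 of 6) had a mean of at least 9.08 and those of goblet cells (5 of 6) of at least 9.27. Markers of plasma cells, follicle B cells, smooth muscle and fibroblasts had values as well, which alone does not show that these cells were present. The scraping was taken as a mixture of cell types. In such a mixture, fewer cells of a type and less RNA per cell cannot be told apart. The number of arrays limits the precision.

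A single pig stood apart in the cytosolic class. The low RFI female of sow 1406 had the highest value of all 20 pigs for 8 of the 12 cytosolic or mitochondrial genes, whereas no other pig was highest for more than 1 of them. It exceeded the median of the other pigs by 1.66 for HSPH1, an Hsp110 that exchanges nucleotide on Hsp70, and by 1.56 for BAG3, a cochaperone of the same system. The excess was 1.24 for HSPB1, 0.996 for HSPE1, 0.98 for CHORDC1, 0.94 for FKBP4, 0.77 for AHSA1 and 0.61 for HSP90AB1. Its median over the class was 0.85 above the other pigs, and 0.05 above them over the ER genes, of which SDF2L1 alone was highest in this pig. DNAJA1, an Hsp40 cochaperone, was 0.92 below the median of the others in the same pig. Its array had a median correlation of 0.963 with the others, within the range over all arrays of 0.957 to 0.968. It was the highest pig for 6.16% of all named genes, where the other pigs were highest for 2.83% to 8.05%. In the same pig the mean of the fibroblast markers (6 of 6 with values) was 7.70 and that of the plasma cell markers (5 of 7) 7.40, each the highest of the 20 pigs. Its smooth muscle markers (6 of 8) had 5.92, with 6.05 the highest of all pigs, and its follicle B cell markers (4 of 8) 7.91, with 8.11 the highest. Enterocyte, goblet cell and T cell markers were at 10.30, 10.29 and 9.26. The part of these cells in the high chaperone values was not tested.

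**Figure D1:**
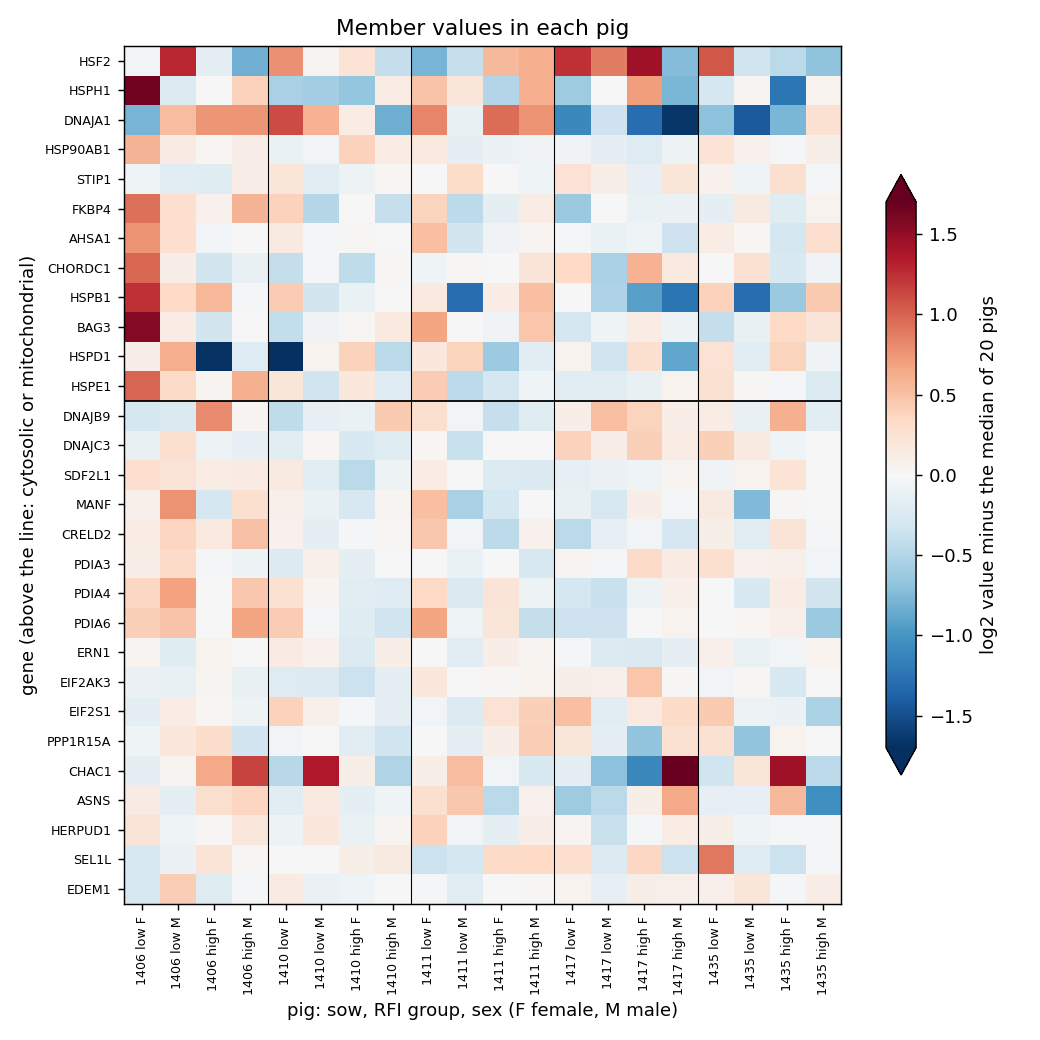
Colour shows the log2 value of each of 29 genes (rows) in each of 20 pigs (columns, by sow, RFI group and sex) after subtracting the median of the 20 pigs, with the colour scale cut at its ends. The column of the low RFI female of sow 1406 is the reddest for 8 of the 12 genes above the line.

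The comparison of the RFI groups asked whether feed efficient pigs differ in these genes. None of the 29 genes passed the unadjusted p under 0.05 that the study used (limma, with sow as a term in the model). Over all 25092 probesets, 3.99% passed, of which 1.43% of all probesets lay higher and 2.55% lower in low RFI, and no probeset passed an adjusted p under 0.05. The smallest p of a member was 0.115 and all 29 had overlapping groups. The difference was under 0.25 in size for 28 of the 29 genes, and the 95% interval lay between -0.5 and 0.5 for 23. Values were higher in low RFI pigs for 20 of 29 genes, against 47.7% of all probesets, with a median difference of 0.04 against -0.01. Without the low RFI female of sow 1406 it was 16 of 29, with a median of 0.02.

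**Figure D2:**
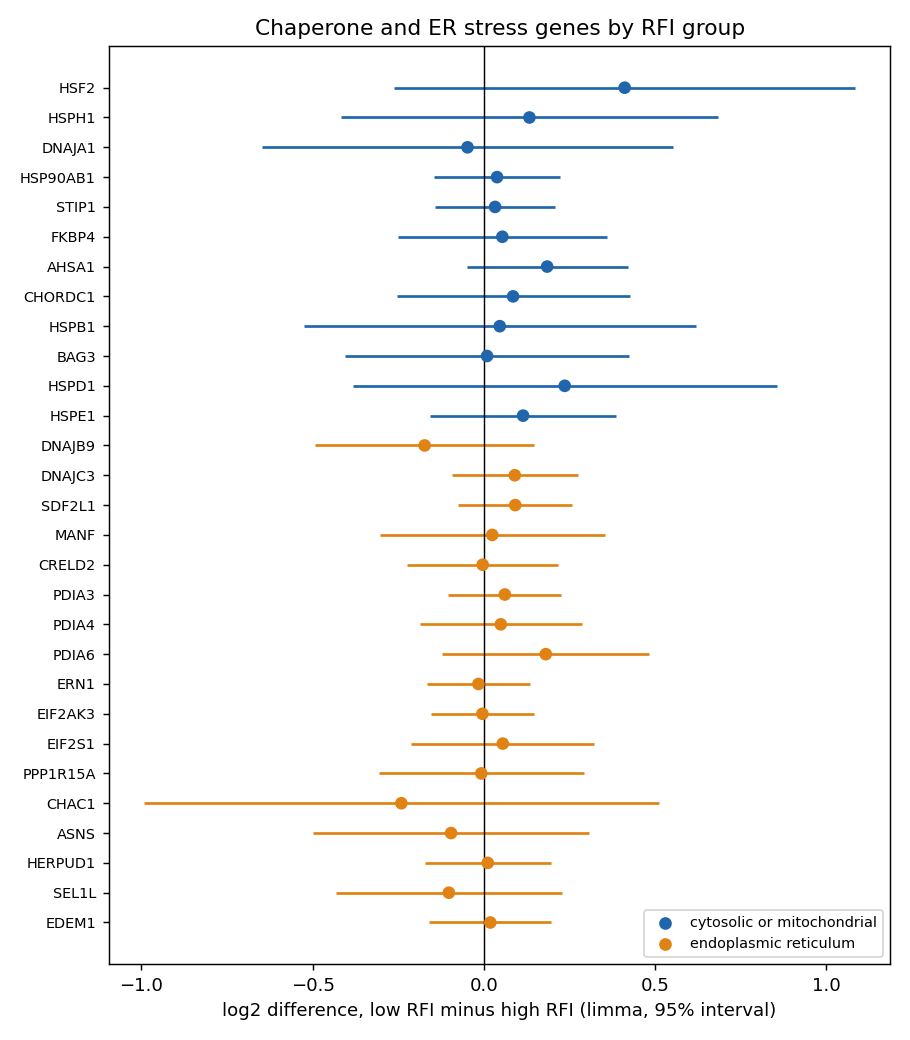
Points show the log2 difference of low RFI minus high RFI for 29 genes and lines its 95% interval from limma, with 10 pigs a group; blue marks cytosolic or mitochondrial and orange ER genes. Every interval crosses 0, and that of AHSA1, from -0.05 to 0.42, comes nearest to leaving it.

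In the cytosolic and mitochondrial class, 11 of 12 genes had a positive difference, with a median of 0.07, but only 6 of 12 without the low RFI female of sow 1406, with a median of 0.01. AHSA1, which stimulates the ATPase of Hsp90, had the smallest p. Its lowest, median and highest values were 7.06, 7.44 and 8.13 in low RFI and 7.02, 7.34 and 7.65 in high RFI pigs, so that the groups overlapped over most of their range. The means were 7.50 ± 0.31 and 7.32 ± 0.18 (SD, n = 10 each), and the difference was 0.18 with a standard error of 0.11 (limma, p = 0.115), higher in low RFI in 7 of 10 pairs. Without the pig of sow 1406 the difference was 0.12 (limma, p = 0.246).
HSF2, a heat shock factor also active in development, was the only one of the 2 listed heat shock factors with values. Low RFI pigs lay at 3.72, 4.92 and 5.80 (lowest, median, highest) and high RFI pigs at 3.69, 4.23 and 5.95, a wide spread in both groups. The difference was 0.41 with a standard error of 0.32 (limma, p = 0.214, 7 of 10 pairs). It was 0.81 without the litter of sow 1411 (limma, p = 0.0205), the only setting in which a member passed.
HSPE1 and HSPD1 encode the small and large rings of the mitochondrial chaperonin and lie next to each other on chromosome 15 of Sscrofa11.1 (HSPD1 from 101360355 to 101373498, HSPE1 from 101374019 to 101376146), 520 bases apart. For HSPE1 the lowest, median and highest values were 7.84, 8.40 and 9.27 in low and 8.01, 8.25 and 8.90 in high RFI pigs, and the difference was 0.11 with a standard error of 0.13 (limma, p = 0.387). For HSPD1 they were 4.17, 6.12 and 6.64 against 4.34, 5.82 and 6.42, with a difference of 0.24 and a standard error of 0.29 (limma, p = 0.433). HSPD1 had its lowest value in the low RFI female of sow 1410 and the next lowest in the high RFI female of sow 1406.
HSPH1 lay at 6.69, 7.18 and 8.94 in low and at 6.06, 7.34 and 8.01 in high RFI pigs, where the median was thus the higher one in high RFI. Its difference of 0.13 (standard error 0.26, limma, p = 0.617) became -0.03 without the low RFI female of sow 1406. The other Hsp90 genes had small differences, 0.04 for HSP90AB1, the constitutive Hsp90 of the cytosol, 0.03 for STIP1, which links Hsp70 to Hsp90, 0.05 for FKBP4, a cochaperone of steroid receptors, and 0.09 for CHORDC1. STIP1 had a mean of 2.43 and lay low on the array. BAG3 had a difference of 0.01, HSPB1 (Hsp27, a small heat shock protein that also binds actin) one of 0.05, and DNAJA1 one of -0.05. Without the low RFI female of sow 1406 these were -0.01 for HSP90AB1, -0.01 for FKBP4, -0.03 for CHORDC1, -0.16 for BAG3, -0.05 for HSPB1 and 0.11 for DNAJA1.

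Among the 17 ER genes, 9 had a positive and 8 a negative difference, with a median of 0.01. The 8 genes of luminal folding had values in low and high RFI pigs that lay within 0.18 of each other on average. PDIA6, a disulphide isomerase, had the smallest p of the class. Its lowest, median and highest values were 7.08, 7.46 and 8.12 in low and 6.81, 7.44 and 8.11 in high RFI pigs, nearly the same range. The difference was 0.18 with a standard error of 0.14 (limma, p = 0.223, 6 of 10 pairs).
SDF2L1, a partner of BiP in the lumen, lay at 6.10, 6.32 and 6.57 against 5.83, 6.25 and 6.52, with a difference of 0.09 and a standard error of 0.08 (limma, p = 0.263). DNAJB9, an ER Hsp40 that restrains IRE1, lay at 4.59, 4.94 and 5.54 in low and 4.63, 5.10 and 5.83 in high RFI pigs. Its difference was -0.17 with a standard error of 0.15 (limma, p = 0.271), the most negative of the luminal genes, and it was lower in 6 of 10 pairs. The remaining luminal genes had differences of 0.09 for DNAJC3, an ER Hsp40, 0.06 for PDIA3, a disulphide isomerase of glycoproteins, 0.05 for PDIA4, another isomerase, 0.02 for the secreted stress protein MANF and -0.00 for CRELD2.
Of the sensors, ERN1 spread least of all members (SD 0.13 over 20 pigs). It lay at 5.71, 5.93 and 6.09 in low and at 5.70, 5.98 and 6.07 in high RFI pigs, with a difference of -0.02 and a 95% interval from -0.17 to 0.14 (limma, p = 0.828). EIF2AK3 had a difference of -0.00 and EIF2S1, the translation factor that PERK phosphorylates, one of 0.06.
The 3 measured genes of the ATF4 and CHOP branch had negative differences, none past the test. CHAC1, which degrades glutathione, ranged from 4.97 to 7.87 over the 20 pigs, and its difference was -0.24 with a standard error of 0.36 (limma, p = 0.508). ASNS, asparagine synthetase, had -0.10 (limma, p = 0.623) and PPP1R15A, the phosphatase subunit that ends the block of translation, -0.01. In ER-associated degradation the differences were 0.01 for HERPUD1, 0.02 for EDEM1, which picks glycoproteins for degradation, and -0.10 for SEL1L, which sits low on the array (mean 2.17).
A further 11 probesets named 7 of the genes. None passed between the RFI groups and 7 had the opposite sign to the most abundant probeset, with correlations to it over the pigs between -0.01 (ASNS) and 0.81 (HERPUD1).

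Beyond the members, 147 chaperone and ER genes of 9 wider lists were examined, of which 103 had values. None was higher and 3 were lower in low RFI pigs at p under 0.05, against 1.43% and 2.55% of all probesets. CRYAB, a small heat shock protein, lay at 2.57, 3.64 and 4.59 in low and 3.44, 4.35 and 5.12 in high RFI pigs (lowest, median, highest). Its difference was -0.62 with a standard error of 0.20 (limma, p = 0.00541, adjusted p = 0.9998), and it passed in all 19 alternative settings. SEC61A1, the channel of the ER translocon, lay at 3.80, 4.75 and 5.56 against 4.64, 5.34 and 6.22, with a difference of -0.58 and a standard error of 0.22 (limma, p = 0.0161, adjusted p = 0.9998, past the test in 17 of 19 settings). CBS, an enzyme of cysteine synthesis on the list of ATF4 targets, had -0.31 with a standard error of 0.14 (limma, p = 0.0432, adjusted p = 0.9998, in 10 of 19 settings). In all 3 genes the groups overlapped. The lists counted 1 of 11 measured small heat shock proteins and prefoldins, 1 of 16 translocon genes and 1 of 13 ATF4 targets lower, and 0 of 11 Hsp70 and J-domain genes, 0 of 9 of the Hsp90 machinery, 0 of 7 CCT subunits, 0 of 14 ER folding enzymes, 0 of 9 degradation genes and 0 of 13 sensors and factors. The cell type markers that passed between the RFI groups were ACTA2 and COL1A1. ACTA2 of smooth muscle was lower in low RFI (-0.62, limma, p = 0.0307, adjusted p = 0.9998, 1 of 6 measured). COL1A1 of fibroblasts was higher (0.39, limma, p = 0.0193, adjusted p = 0.9998, 1 of 6). The smooth muscle mean was 5.15 in low and 5.25 in high RFI pigs. Its 6 genes did not move together. Their median difference was -0.12, but TAGLN (0.31, limma, p = 0.286) and DES (0.14, limma, p = 0.362) lay higher in low RFI. The smooth muscle mean was a covariate in 1 of the 19 settings, and its part in the CRYAB difference was not tested further.

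The litters were compared next. For the median member, 23.2% of the variance lay between litters, 1.11% between RFI groups and 1.71% between sexes (4, 1 and 1 degrees of freedom), against 23.7%, 2.19% and 3.16% for the median probeset. With more degrees of freedom, litter takes a larger share even without any difference, so these shares do not rank the factors. At p under 0.05, 3 of 29 genes differed between litters (DNAJA1, EIF2AK3 and HSPE1), where 12.5% of all probesets did. After adjustment 0.163% of probesets passed and no member. DNAJC3 and PDIA4 had the next smallest p.
DNAJA1 values were, for the low RFI female, low RFI male, high RFI female and high RFI male, 4.18, 5.50, 5.72 and 5.72 in the litter of sow 1406. In the same order they were 6.07, 5.56, 5.10 and 4.14 for sow 1410 and 5.80, 4.84, 5.92 and 5.73 for sow 1411. They were 3.88, 4.62, 3.67 and 3.32 for sow 1417 and 4.27, 3.54, 4.19 and 5.22 for sow 1435. The litter of sow 1417 thus lay lowest, at a mean of 3.87 ± 0.55, and that of sow 1411 highest, at 5.57 ± 0.49 (SD, n = 4 each). The F of the litter term in limma was 5.15 (p = 0.0066, adjusted p = 0.224), and without the litter of sow 1417 the p was 0.0712. The filter of the paper on the SD would leave DNAJA1 out, as it would CHAC1.
EIF2AK3 values in the same order were 6.81, 6.78, 6.95 and 6.78 for sow 1406, 6.68, 6.68, 6.54 and 6.74 for sow 1410, and 7.08, 6.90, 6.92 and 6.96 for sow 1411. They were 7.002, 6.99, 7.37 and 6.93 for sow 1417 and 6.86, 6.92, 6.65 and 6.91 for sow 1435. Every pig of sow 1410 lay below every pig of sow 1406, of sow 1411 and of sow 1417. The litter means ran from 6.66 ± 0.08 (sow 1410) to 7.08 ± 0.20 (sow 1417; SD, n = 4 each). The limma F was 3.88 (p = 0.0204, adjusted p = 0.306), and the p was 0.183 without the litter of sow 1410 and 0.0738 without that of sow 1417.
HSPE1 was highest in the litter of sow 1406, with 9.27, 8.62, 8.33 and 8.90. The other litters had 8.49, 7.97, 8.46 and 8.07 (sow 1410), 8.72, 7.84, 8.01 and 8.22 (sow 1411), 8.11, 8.12, 8.16 and 8.35 (sow 1417) and 8.55, 8.30, 8.28 and 8.06 (sow 1435). The mean was 8.78 ± 0.40 for sow 1406 and between 8.18 and 8.30 for the other 4 litters (limma F = 2.99, p = 0.0488, adjusted p = 0.396). This result rested mostly on sow 1406: the p was 0.928 without its litter and 0.262 without its low RFI female alone. It also did not pass without the litter of sow 1417 (limma, p = 0.0617).
DNAJC3 had 7.37, 7.77, 7.41 and 7.36 for sow 1406, 7.31, 7.53, 7.25 and 7.29 for sow 1410, 7.53, 7.12, 7.50 and 7.50 for sow 1411, 7.89, 7.61, 7.91 and 7.62 for sow 1417 and 7.90, 7.65, 7.43 and 7.49 for sow 1435. It was highest in the litter of sow 1417 and did not pass (limma, p = 0.0530). PDIA4 had 9.13, 9.46, 8.77 and 9.23 for sow 1406, 9.04, 8.83, 8.59 and 8.56 for sow 1410, 9.12, 8.53, 9.004 and 8.69 for sow 1411, 8.48, 8.40, 8.70 and 8.87 for sow 1417 and 8.79, 8.52, 8.91 and 8.47 for sow 1435. Its mean was highest in the litter of sow 1406 and lowest in that of sow 1417, 9.15 against 8.61, and it did not pass either (limma, p = 0.0595).

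**Figure D3:**
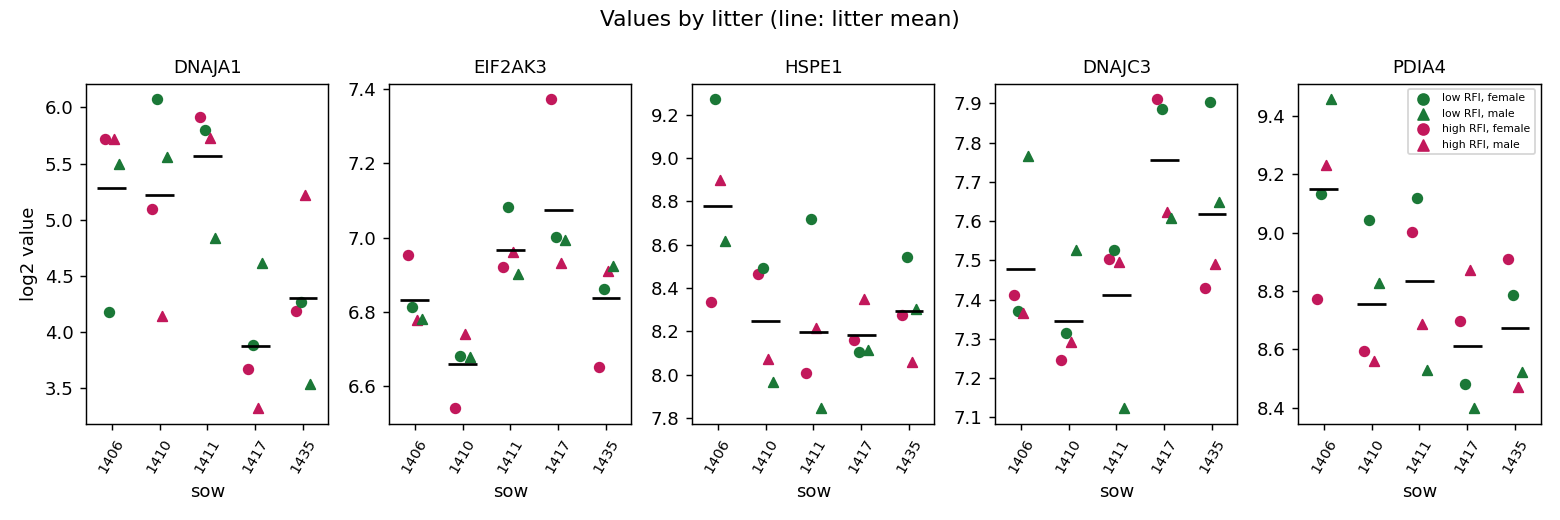
The log2 value of each pig is plotted by sow for the 5 genes of smallest litter p, with colour for RFI group, shape for sex and a line at the mean of 4 pigs. DNAJA1 lies low in the litter of sow 1417 and HSPE1 high in that of sow 1406.

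Cell type markers varied with litter as well. The mean of all 6 fibroblast markers was 7.36 for sow 1406 and 5.38 for sow 1435. The mean of 6 of 8 smooth muscle markers was 5.62 for sow 1406 and 4.95 for sow 1417, and that of 5 of 7 plasma cell markers was 7.15 and 6.43 for the same sows. Follicle B cell markers (4 of 8) had litter means between 6.41 and 7.22. Enterocyte markers (5 of 8) ran the other way, with 10.45 for sow 1406 and 10.99 for sow 1435. T cell markers (5 of 6) had litter means between 9.25 and 9.56, and goblet cell markers (5 of 6) between 9.65 and 10.12. The part of these cells in the litter differences was not tested. Of the wider lists, 19 of 103 genes differed between litters at p under 0.05, against 12.5% of all probesets. DNAJB6, an Hsp40, ran from a mean of 7.003 for sow 1406 to 7.99 for sow 1417 (limma, p = 0.000133, adjusted p = 0.0591). TRAP1, the mitochondrial Hsp90, ran from 6.74 for sow 1411 to 7.93 for sow 1410 (limma, p = 0.000284, adjusted p = 0.076). Both passed in all 13 settings tried. DDIT4, a stress-induced inhibitor of mTOR complex 1, was 7.99 for sow 1406 and 7.32 for sow 1417 (limma F = 7.49, p = 0.00113), but F was 0.89 without the litter of sow 1406 (limma, p = 0.472). The others were DNAJA2, HSPA4L, DNAJB14, CRYAB, CCT4, CCT7, TXNDC12, PPIB, ERP44, ERP29, SSR4, SSR1, SEC62, CEBPG, CBS and SHMT2, none at an adjusted p under 0.05. Each of these but SSR1 no longer passed with at least 1 litter left out. Without the low RFI female of sow 1406, CEBPG, CBS, CCT7, CRYAB, CCT4 and HSPA4L did not pass (limma, p from 0.0617 to 0.0776). When a gene was given by its probesets averaged, HSPA4L and SSR1 did not pass (limma, p = 0.232 and 0.617).

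Sex was balanced over RFI group and litter, so it could be tested beside them. None of the 29 genes differed between females and males at p under 0.05, where 7.15% of all probesets did. Values were higher in females for 24 of 29 genes, against 46.0% of probesets, with a median of 0.06 against -0.01, and for 22 of 29 without the low RFI female of sow 1406.

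The difference between RFI groups was then compared between the sexes. At p under 0.05, 3 of 29 genes had an RFI difference that differed between females and males, HSPB1, HSPE1 and HERPUD1, where 5.86% of all probesets did. None of the 25092 probesets passed after adjustment. The difference in females exceeded that in males for 22 of 29 genes, against 51.5% of probesets, with a median of 0.18 against 0.01.
HSPB1 had values of 8.86 to 10.09 in low RFI females and 7.93 to 9.41 in high RFI females, and of 7.55 to 9.20 in low RFI males and 7.61 to 9.36 in high RFI males. It was higher in the low RFI pig in 5 of 5 female pairs and lower in 3 of 5 male pairs. The means were 9.30 ± 0.48 and 8.65 ± 0.59 in females and 8.23 ± 0.70 and 8.79 ± 0.71 in males (SD, n = 5 each). The difference was 0.65 in females and -0.55 in males (interaction 1.20, standard error 0.42, limma, p = 0.0124, adjusted p = 0.822). Without the low RFI female of sow 1406 the interaction was 1.15 (limma, p = 0.0237), and without the litter of sow 1435 it was 0.81 (limma, p = 0.0931).
HSPE1 had 8.11 to 9.27 in low and 8.01 to 8.46 in high RFI females, and 7.84 to 8.62 in low and 8.06 to 8.90 in high RFI males. It was higher in the low RFI pig in 4 of 5 female pairs and lower in 4 of 5 male pairs (interaction 0.53, standard error 0.22, limma, p = 0.0273, adjusted p = 0.822). Without the low RFI female of sow 1406 it was 0.46 (limma, p = 0.0584), no longer past the threshold. It also did not pass without the litter of sow 1406 (0.36, limma, p = 0.147) or that of sow 1411 (0.39, limma, p = 0.146).
HERPUD1, a membrane protein that gathers the ER degradation machinery, had 10.79 to 11.27 in low and 10.73 to 10.90 in high RFI females, and 10.50 to 11.06 in low and 10.86 to 11.07 in high RFI males. The low RFI pig was higher in 5 of 5 female pairs and lower in 4 of 5 male pairs (interaction 0.36, standard error 0.16, limma, p = 0.0384, adjusted p = 0.824). Without the low RFI female of sow 1406 the interaction was 0.35 (limma, p = 0.0573). Nor did it pass without the litter of sow 1406, 1411, 1417 or 1435 (limma, p = 0.114, 0.156, 0.110 and 0.0585). All 5 other probesets of HERPUD1 had a positive interaction, from 0.20 to 0.78, and 1 of them passed (limma, p = 0.0154). The second probeset of BAG3 also passed (0.91, limma, p = 0.0222), while the most abundant did not (0.38, limma, p = 0.367).

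**Figure D4:**
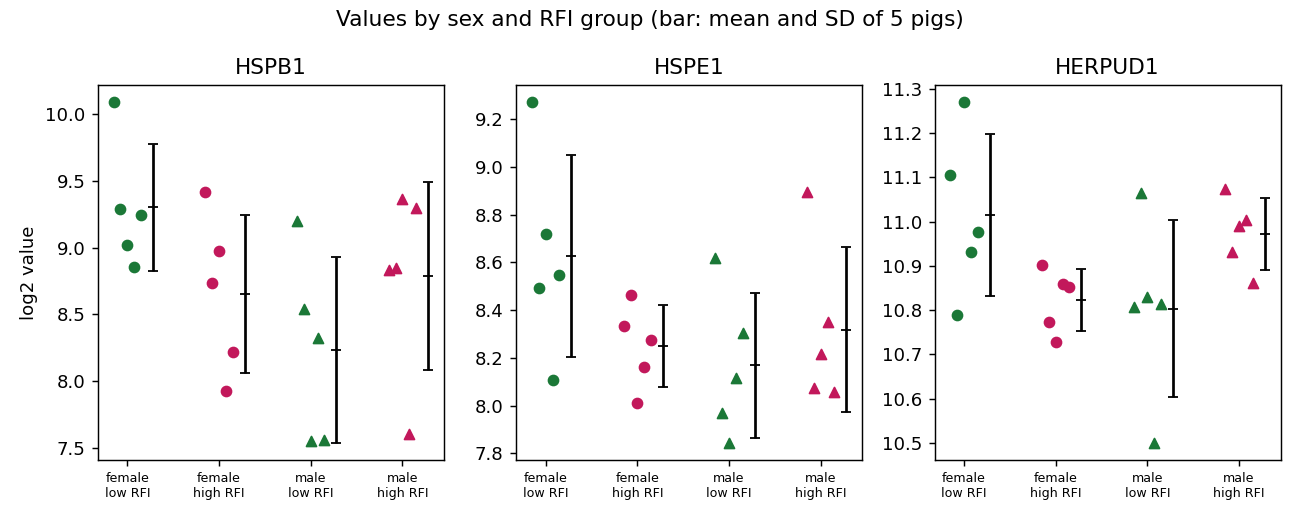
The log2 value of each pig is plotted by sex and RFI group for HSPB1, HSPE1 and HERPUD1, with the mean and SD of 5 pigs beside the points. In all 3 genes the mean of low RFI females lies above that of high RFI females, and the mean of low RFI males below that of high RFI males.

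Follicle B cell markers (4 of 8 with values) had a mean of 7.28 in low and 6.87 in high RFI females, and of 6.61 in low and 7.01 in high RFI males, the same order as HSPB1. Smooth muscle markers had 5.30, 5.25, 4.996 and 5.25 in that order. T cell markers (5 of 6) had 9.36, 9.42, 9.56 and 9.31, and 3 of the 5 had an RFI difference that differed between the sexes at p under 0.05. None of the measured markers of the other 6 lists did. Plasma cell markers had 6.89, 6.75, 6.69 and 6.89, fibroblast markers 6.40, 6.26, 6.01 and 5.94, enterocyte markers 10.54, 10.61, 10.84 and 10.69 and goblet cell markers 9.97, 10.05, 9.89 and 9.84. The part of these cells in the sex differences was not tested.

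Pairs of members that share a regulator or a complex were compared across the 20 pigs after subtracting the litter means. Of 12 pairs fixed first, only 1, HSPD1 with HSPE1, had values for both genes, and it did not pass. Another 13 pairs were chosen once it was known which genes had values. A further 4, added after seeing the data, set a gene against a marker score. Of these 18 pairs, 6 passed an adjusted p under 0.05, all of them among the added ones (permutation test, 100000 shuffles within litters, two-sided, Benjamini-Hochberg over the 18).
PDIA4 and PDIA6 were the closest (Pearson r = 0.82, permutation p = 0.00019, adjusted p = 0.00342; Spearman rho = 0.78, permutation p = 0.00068). With the 2 pigs farthest from the median of PDIA4 left out, r was 0.81 (permutation test, adjusted p = 0.00594). PDIA4 and MANF had r = 0.70 and rho = 0.63 (permutation p = 0.00432 and 0.0106, adjusted p = 0.0345 and 0.0395). ASNS and CHAC1, both ATF4 targets, had r = 0.67 and rho = 0.68 (permutation p = 0.00575 and 0.00301, adjusted p = 0.0345 and 0.0271). HSP90AB1 and its cochaperone gene AHSA1 had r = 0.64 and rho = 0.51 (permutation p = 0.011 and 0.0354, adjusted p = 0.0396 and 0.096).
With the 2 pigs farthest from the median of the gene named first left out, r was 0.54 for PDIA4 and MANF, 0.62 for ASNS and CHAC1 and 0.61 for HSP90AB1 and AHSA1, each with an adjusted p of 0.132 (permutation test), so that these 3 pairs did not pass with 18 pigs. HSP90AB1 and AHSA1 had r = 0.43 without the low RFI female of sow 1406 (permutation test, adjusted p = 0.173). The pair of HSPD1 and HSPE1, neighbours on the chromosome and partners in 1 complex, had r = 0.12 and rho = -0.00 (permutation p = 0.689 and 0.993).
Of the isomerases, PDIA4 and PDIA6 were set against the mean of the plasma cell markers DERL3, IRF4, PRDM1, TNFRSF17 and POU2AF1. DERL3 is itself a gene of ER-associated degradation, so the mean is not free of ER genes. This mean had r = 0.66 and rho = 0.66 with PDIA4 (permutation p = 0.00795 and 0.00778, adjusted p = 0.0358 and 0.0395) and r = 0.62 and rho = 0.63 with PDIA6 (permutation p = 0.0135 and 0.011, adjusted p = 0.0404 and 0.0395). With the 2 farthest pigs left out, r was 0.46 (permutation test, adjusted p = 0.237) and 0.66 (adjusted p = 0.0684). PDIA6 and the markers also did not pass without the low RFI female of sow 1406 (r = 0.64, permutation test, adjusted p = 0.0593) or with the arrays centred on their medians (r = 0.61, adjusted p = 0.0525). Smooth muscle markers had r = 0.23 with HSPB1 and 0.01 with HSPH1 (permutation p = 0.368 and 0.984). The remaining 9 pairs did not pass, among them HSPH1 with CHORDC1 (r = 0.58, permutation p = 0.0515, adjusted p = 0.132) and HSPH1 with PDIA4, across the classes (r = -0.31, permutation p = 0.259).

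**Figure D5:**
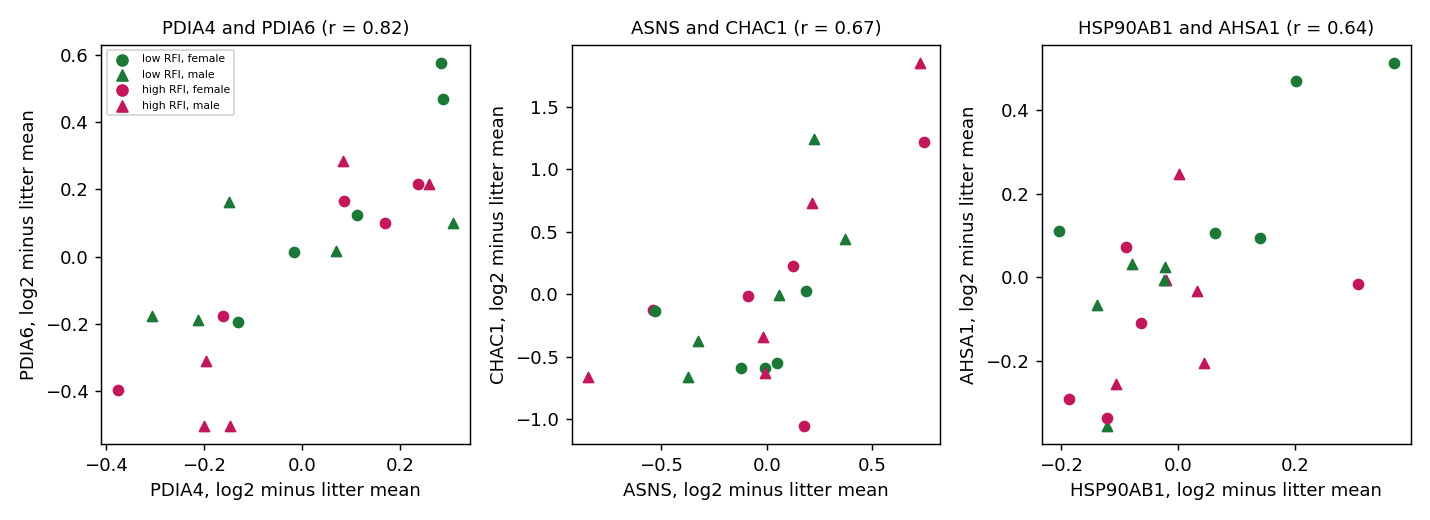
Each point is a pig, with the log2 value minus the litter mean of 1 gene on either axis, for PDIA4 and PDIA6, ASNS and CHAC1, and HSP90AB1 and AHSA1; colour marks RFI group and shape sex. The first pair follows a line over the whole range (r = 0.82), and in the last the point farthest to the upper right is the low RFI female of sow 1406.

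As a description over all pairs of members, r was over 0.5 for 19.7% of the 66 pairs within the cytosolic and mitochondrial class, for 8.09% of the 136 pairs of ER genes and for 3.43% of the 204 pairs between the classes, against 3.61% of all pairs of named genes. Without the low RFI female of sow 1406 these shares were 6.06%, 8.82% and 8.82%. The medians were 0.19, 0.15 and 0.03, against 0.00 for all named genes, and 0.099, 0.17 and 0.06 without that pig.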

How the data were processed

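Ileum mucosa of 20 pigs was scraped, frozen and measured on 1 snowball array per pig. As described in the paper, the authors assigned the probes to probesets with a layout built on Sscrofa11.1 and normalized them by the robust multichip average in affy, so the deposited values are log2 signals. The processing notes name GCOS 1.1.1. The labels name Qiazol and the Ambion WT kit for RNA and labelling, the paper TRI reagent and the WT Plus kit. Of 47845 rows, 25092 were filled on all arrays. The custom layout can differ from the platform annotation that named the probesets here, in which 331 symbols were updated through RefSeq synonyms.

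Each filled probeset was fitted in limma 3.58.1 (R 4.3.3) with RFI group and sow, leaving 14 residual degrees of freedom (3.07 in the prior). Sex, and its interaction with RFI group, were added for those tests. Litter was tested by the F of the sow terms. Slaughter batch, part of the model in the paper, was left out because the labels lack it. Genes were called at an unadjusted p under 0.05, given beside Benjamini-Hochberg adjustment over the 25092. The fit was checked on simulated data. Correlations and figures used Python 3.11.15 (numpy 2.4.6, pandas 2.3.3, matplotlib 3.10.9).

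Members and lists were chosen with earlier results of these data known. Values are given for members past a threshold, for the 3 of smallest RFI p in each class, for named key genes and, pig by pig, for the 5 of smallest litter p. Genes of the wider chaperone and ER lists are named at p under 0.05, up to 4 per list, and cell type markers in the RFI test only. Deviations of the pigs of a pair had a median correlation of 0.0873, over 0.1 in 3 of 10 pairs, so the pair entered only as an alternative. The caecum is not analysed here.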

Additional observations from a re-analysis of the deposited data

Results flagged for a closer look

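Gaps between the highest or lowest pig and its neighbour were tested by Dixon's criterion in 83 groups of 4 or 10 pigs, and 12 passed. Chance flags about 1 in 20 groups. In the low RFI group, HSPH1 (8.94, next 7.79) and HSP90AB1 (11.04, next 10.69) were far above the rest, in both cases in the low RFI female of sow 1406, and SEL1L was at 3.05 (next 2.43). HSPD1 (4.17, next 5.69) and PPP1R15A (6.41, next 6.92) had 1 low RFI pig far below the rest. In the high RFI group, FKBP4 (8.16, next 7.70), HSPE1 (8.90, next 8.46) and EIF2AK3 (7.37, next 6.96) had 1 pig far above the others. The same EIF2AK3 value of 7.37 stood apart within the litter of sow 1417. In the litter of sow 1406, DNAJA1 had a low value of 4.18 in the pig named above (next 5.50) and DNAJC3 a high one of 7.77 (next 7.41), and in that of sow 1411 DNAJC3 had a low value of 7.12 (next 7.497).

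The interaction of RFI group and sex passed the unadjusted p under 0.05 for 3 members, where 5.86% of all probesets did, and for none after adjustment. HSPB1 had 1.20 on the log2 scale, higher in low RFI in 5 of 5 female pairs and lower in 3 of 5 male pairs (limma, adjusted p = 0.822). HSPE1 had 0.53 (4 of 5 and 4 of 5, limma, adjusted p = 0.822) and HERPUD1 0.36 (5 of 5 and 4 of 5, limma, adjusted p = 0.824). Of the 3, HSPB1 alone still passed the unadjusted threshold without the low RFI female of sow 1406. Each of the 3 fell short of it with at least 1 litter left out.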

How the results depend on the processing

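No member passed between the RFI groups in any setting but 1: with each litter left out in turn the count ran from 0 to 1, HSF2 without that of sow 1411, and it was 0 without the low RFI female of sow 1406 (low RFI replicate 5), whose removal was added after seeing the data. It was also 0 with no sow term, with the sow as a random block, with the pair as a block, with sex, with marker scores as covariates (that of plasma cells was added after seeing the data) and under the other normalizations. The count of 3 members between litters became 5 with renewed quantile normalization, 5 with a trend in eBayes and 5 with array weights, and ran from 0 (without sow 1417) to 8 (without sow 1411) with a litter left out. The count between sexes was 0, and from 0 to 1 with a litter or that pig left out. The count of 3 for RFI by sex ran from 1 to 5 with a litter left out and was 1 without that pig. Instead of 6 correlations, 10 passed without centring on litter and 1 with the 2 farthest pigs left out. The causes were not tested. Of 1017 values of single genes and pairs under the alternatives, 942 stayed on their side of the threshold, 70 no longer passed, 5 passed newly and none that passed turned its direction. The sign of the RFI difference, which passed for no member, was the same in every setting for 9 of 29 genes.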
